A study of Mus musculus with 6 samples.

Results

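The genes described here are all 37 genes of the mouse mitochondrial chromosome (GRCm38, chrM), chosen by position and not by any measured value: 13 genes of respiratory chain proteins, 2 genes of ribosomal RNA (rRNA) and 22 genes of transfer RNA (tRNA). All 37 were found among the 47643 genes of the count tables. Counts came from tumor cells sorted as CD45-EPCAM+ from 6 mammary tumors of MMTV-PyMT mice (FVB/N), in which a mouse mammary tumor virus promoter drives the polyoma middle T oncogene in mammary epithelium. Every mouse had received B20-4.1.1, an antibody that blocks VEGF-A, at 5 mg/kg with 2 injections per week for 6 weeks from 7 weeks of age. Isotype-treated tumors were not analysed here. The hypoxia class of each tumor is not in the labels, so the tumors are numbered 1 to 6 and treated as 1 group.

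Mitochondrial DNA is transcribed from both strands as long precursor RNAs, with 28 of its genes on the heavy-strand transcript and 9 on the light-strand one. tRNAs sit between most of the protein and rRNA genes, and cutting them out releases the mRNAs and rRNAs, a scheme known as tRNA punctuation. Most of the mRNAs and, with shorter tails, the rRNAs are then polyadenylated inside the organelle, and the tail completes the stop codon of some mRNAs. The proteins are core subunits of complexes I, III, IV and V, whose other subunits are made from nuclear genes, and the rRNAs and tRNAs serve only the translation of those proteins.

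Gene counts ranged from 2509482 to 5893246 per library, and 3 counts, taken as the floor of detection, corresponded to 0.509 to 1.20 CPM (counts scaled to the total on genes of each library). Reads assigned to no gene made up 16.1% of reads in tumor 1 and 41.4% in tumor 2, the lowest and the highest share. The library of tumor 1 stood apart: its median rank correlation with the other libraries across genes was 0.773, against 0.888 to 0.929 for the other 5. Results that rest on tumor 1 are therefore given with and without it. The 7 luminal epithelial markers, Epcam among them, had a sum of 3957 to 4874 CPM, and 5 endothelial markers a sum of at most 4.61 CPM. Over 13 immune markers the sum was 104 to 297 CPM (9 above the floor in some tumor, Cd8a and Cd79a at 0 in all). Of these, S100a8 held 73.8 to 230 CPM, Lyz2 3.19 to 148 CPM, and Ptprc, the gene of CD45, 0.797 to 3.39 CPM. Over 6 fibroblast markers the sum was 14.8 to 21.6 CPM. For erythroid markers it reached 864 CPM in tumor 3, mostly globin RNA, against 5.66 to 69.4 CPM elsewhere, and their part in the values of tumor 3 was not tested.

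The first question was which of the 37 genes a 3′ library reports at all. The counts fell on few of them: 14 genes were above the floor in all 6 tumors (7 mRNAs, both rRNAs and 5 tRNAs), 12 had 0 counts in every tumor, and 17 never rose above 3 counts in a tumor. Among these 17 were 6 of the 13 mRNAs, those of mt-Co2, mt-Atp8, mt-Atp6, mt-Co3, mt-Nd3 and mt-Nd4l. mt-Co2 and mt-Co3 encode subunits of cytochrome c oxidase, mt-Atp6 and mt-Atp8 subunits of ATP synthase, and mt-Nd3 and mt-Nd4l subunits of NADH dehydrogenase. Of these, mt-Co2, mt-Atp6 and mt-Nd3 had 1 count each over all 6 libraries and the others 0.

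**Figure D1:**
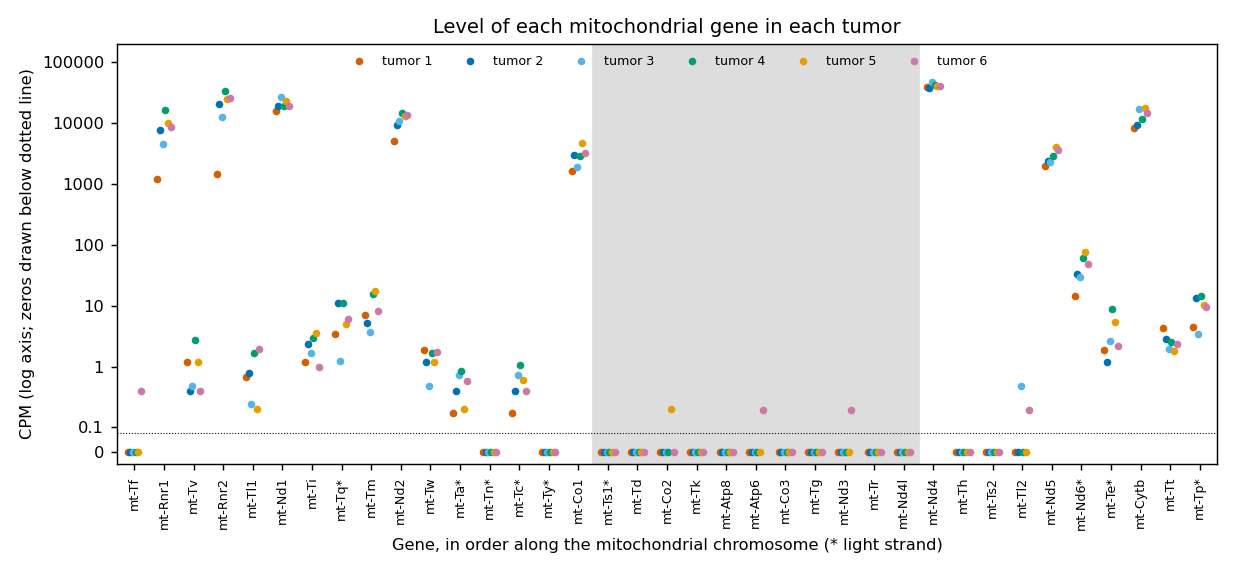
Level of each of the 37 genes in each tumor (CPM, log axis, zeros drawn below the dotted line), in order along the mitochondrial chromosome. Gray marks the 11 genes that lie within the stretch copied to chromosome 1, which together held 3 counts in 6 libraries, between mt-Co1 and mt-Nd4 at 1649 to 46950 CPM.

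These 6 mRNAs lie next to each other, from mt-Co2 to mt-Nd4l, and the plot of levels along the chromosome shows a gap there. The same stretch exists a second time in the nuclear genome. GENCODE M21 (GRCm38) lists 7 pseudogenes on the minus strand of chromosome 1, chr1:24611535-24616197, each of which shares at least 97.1% of its 50-base windows with a mitochondrial gene. Along this block of 4663 bases the copies follow the order and spacing of the mitochondrial genes, and the block corresponds to chrM:6381-11043. The copies are Gm29216 of mt-Co1, Gm28661 of mt-Co2, Gm10925 of mt-Atp6, Gm28437 of mt-Co3, Gm28438 of mt-Nd3, Gm10222 of mt-Nd4l and Gm28439 of mt-Nd4. The last bases that the copies share with mt-Co2 and mt-Co3 are printed here because a 3′ read falls near them. The copy and the mitochondrial gene are identical over all 30 bases in each, so each is printed once, in the sense direction of the gene.

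mt-Co2 (chrM:7664-7693, plus strand) and Gm28661 (chr1:24614885-24614914, minus strand): tatttcgaaaactgatctgcttcaataatt
mt-Co3 (chrM:9360-9389, plus strand) and Gm28437 (chr1:24613189-24613218, minus strand): ctatacgtctccatttattgatgaggatct

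In all, 11 of the 37 genes lie wholly within the copied stretch, the 6 mRNAs above and the tRNA genes mt-Ts1, mt-Td, mt-Tk, mt-Tg and mt-Tr. They held 3 of the 3263334 counts on mitochondrial genes, and 8 of the 11 were at 0 in every tumor. Of the 26 genes that lie outside or only partly inside it, 4 were at 0 in every tumor, the tRNA genes mt-Tn, mt-Ty, mt-Th and mt-Ts2. The copies were not where the counts stood: the 7 pseudogenes summed to 1.99 to 8.99 CPM per tumor and to 138 counts over all libraries. Of those 138 counts, 98 were on Gm28438, 15 on Gm10925, 10 each on Gm28437 and Gm29216, 2 each on Gm28439 and Gm10222, and 1 on Gm28661. The counter used by the authors, HTSeq, leaves a read with several matches in no gene unless told otherwise, and the line for such reads was at 0 in all 6 files. How reads with several matches were handled before counting is not given in the sources used here, and what became of the reads from these genes was not tested.

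**Figure D2:**
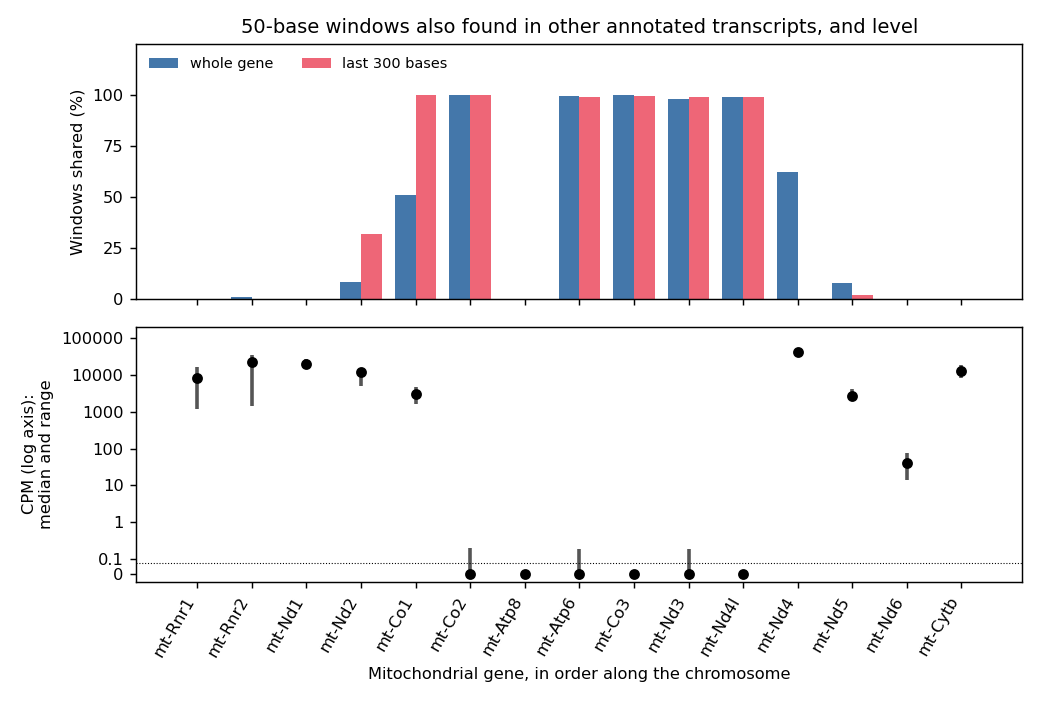
Top, percent of 50-base windows of each rRNA and protein gene that occur exactly in another annotated transcript, over the whole gene and over its last 300 bases. Bottom, level over the 6 tumors (CPM, log axis, point at the median, bar from lowest to highest, zeros below the dotted line): the 5 mRNAs with at least 90% of windows shared were at 0 to 0.200 CPM.

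Exact sharing was then measured for each gene, as the percent of its 50-base windows that occur in any other of 141730 annotated transcripts on either strand. It was 100% in mt-Co2, 99.9% in mt-Co3, 99.5% in mt-Atp6, 98.8% in mt-Nd4l and 98.0% in mt-Nd3. In contrast it was 0% in mt-Nd1, mt-Nd6, mt-Cytb and mt-Rnr1, 1.04% in mt-Rnr2, 7.61% in mt-Nd5 and 8.19% in mt-Nd2. mt-Atp8 also had 0% shared although it was at 0 counts. Most of its place in the block on chromosome 1 lies between annotated copies, where no transcript was available to search. Its last 43 bases overlap mt-Atp6 and so fall in an annotated copy, but they are fewer than a 50-base window. The tRNA genes within the copied stretch had 0% shared as well.

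The genes at the edges of the copied stretch divide within themselves. In mt-Nd4 sharing ended at base 876, so that its last 502 bases were found in no other annotated transcript, and mt-Nd4 was the highest mRNA. mt-Co1 shows the opposite arrangement, with its last 479 bases all shared and 51.1% of windows shared over the gene, yet it stood at 1649 to 4737 CPM. A fully shared 3′ end therefore did not go with a level near 0 in this gene. Positions of reads within a gene are not given by a count table.

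Among the mRNAs that were counted, mt-Nd4 was the most abundant. Its levels were 39624, 38190, 46950, 42462, 40093 and 40814 CPM in tumors 1 to 6, a coefficient of variation (CV) of 7.45%. It encodes a proton-pumping membrane subunit of complex I and ranked first or second of all genes in every library. Of the 74 genes in the tables averaging 1000 CPM or more, 98.6% had a larger CV than mt-Nd4, the median being 28.9%, and without tumor 1 95.9% had a larger one. No tumor stood clearly high or low for this gene. A level held even on the CPM scale does not fix the level per cell, which such counts do not give.

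mt-Nd1, another membrane subunit of complex I, measured 15784, 19165, 26846, 19381, 23353 and 19326 CPM in tumors 1 to 6, with tumor 1 lowest. mt-Cytb, the mitochondrially encoded subunit of complex III, measured 8291, 9321, 17235, 11533, 17909 and 14547 CPM. Tumors 1 and 2 were the lowest for mt-Cytb and tumors 3 and 5 the highest. mt-Nd2, also of complex I, measured 5005, 9492, 10894, 14693, 13322 and 13652 CPM. Without tumor 1, mt-Nd2 lay between 9492 and 14693 CPM, and the median of the other 5 tumors was 2.66 times the level in tumor 1.

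mt-Co1, the catalytic subunit of cytochrome c oxidase, measured 1649, 2995, 1912, 2888, 4737 and 3214 CPM in tumors 1 to 6. mt-Nd5, a complex I subunit at the far end of the membrane arm, measured 2005, 2411, 2290, 2935, 4134 and 3561 CPM. Tumor 5 was highest and tumor 1 lowest for both genes. Set side by side per length, median levels were 29356 CPM per kilobase for mt-Nd4, 20223 for mt-Nd1, 11665 for mt-Nd2, 11399 for mt-Cytb, 1904 for mt-Co1 and 1466 for mt-Nd5. On that scale mt-Nd2 and mt-Cytb were nearly equal and their ranges overlapped, as did those of mt-Co1 and mt-Nd5. Because a 3′ library counts ends and not length, this order depends on the scaling for neighbors as close as these.

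mt-Nd6 encodes the one protein on the light strand, a complex I subunit. It measured 14.4, 32.7, 29.1, 61.5, 75.3 and 48.4 CPM in tumors 1 to 6, and at 78.1 CPM per kilobase its median was far below that of mt-Nd5, its neighbor on the opposite strand. For every 1000 counts on mt-Nd5 there were 7.19 (tumor 1) to 20.9 (tumor 4) on mt-Nd6, with 12.7 as the lowest of the other tumors. Libraries were primed with oligo(dT), and poly(A) tails were not measured. A difference in tails between the 2 RNAs therefore cannot be told apart from a difference in level. The 2 genes overlap by 14 bases on opposite strands. Whether counting used the strand is not given in the sources used here, and without it, counts on a gene and on RNA of the opposite strand cannot be told apart. All 9 light-strand genes together reached 24.4 to 97.6 CPM, between 0.0307% and 0.0696% of the mitochondrial counts.

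As shares of the counts on the 13 mRNAs, which take the library total out of the comparison, mt-Nd4 made up 38.7% to 54.8% (median 44.7%) and mt-Nd1 20.3% to 25.3% (22.2%). Shares of mt-Cytb were 11.4% to 17.3% and of mt-Nd2 6.92% to 15.6%, with tumor 1 the lowest for mt-Nd2 and 10.3% the lowest of the others. The high end for mt-Nd4 was tumor 1 as well, and mt-Nd4 made up 46.8% at most in the other 5 tumors. mt-Co1 stayed between 1.80% and 4.57%, mt-Nd5 between 2.16% and 3.99%, and mt-Nd6 between 0.0199% and 0.0726%. Since 6 mRNAs were scarcely counted, these are shares of the 7 that were, and not of the mitochondrial mRNA pool.

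The ends of 4 of these mRNAs are printed to show what the poly(A) tail has to complete, with the encoded part of the stop codon in capitals. By the annotation, 10 of the 13 genes end in a complete stop codon, as mt-Nd1 does, and 3 end in a lone T, namely mt-Nd4, mt-Cytb and mt-Co3. For those 3 the stop codon TAA arises only when A is added to the RNA. As annotated, mt-Nd1 and mt-Nd2 overlap the tRNA gene that follows on the same strand, mt-Ti and mt-Tw, by 2 bases each. The last 2 bases of their annotated stop codons therefore belong to a tRNA gene as well. Where the RNA was cut is not given by counts, so more mRNAs than those 3 may need the tail.

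mt-Nd1 (chrM:3678-3707, plus strand): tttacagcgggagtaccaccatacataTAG
mt-Nd4 (chrM:11515-11544, plus strand): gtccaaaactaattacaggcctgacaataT
mt-Cytb (chrM:15259-15288, plus strand): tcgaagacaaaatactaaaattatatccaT
mt-Co3 (chrM:9361-9390, plus strand): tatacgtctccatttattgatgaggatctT

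The genes annotated with a lone T were at both extremes, with mt-Nd4 highest of the mRNAs and mt-Co3 at 0 counts. Of these 3 genes, mt-Co3 is also the one whose end is found on chromosome 1.

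The rRNAs differed widely between tumors, tumor 1 above all. mt-Rnr2, the 16S rRNA of the large mitochondrial ribosomal subunit, measured 1445, 20268, 12566, 33656, 25311 and 26080 CPM in tumors 1 to 6. mt-Rnr1, the 12S rRNA of the small subunit, measured 1197, 7750, 4466, 16172, 10136 and 8518 CPM. Tumor 1 was far below the others for both, tumor 3 next, and tumor 4 highest. The median of the other 5 tumors was 17.5 times the level in tumor 1 for mt-Rnr2 and 7.12 times for mt-Rnr1. In rank among all genes of a library, mt-Rnr2 was between 2 and 5 in tumors 2 to 6 and 63 in tumor 1.

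Their CVs, 57.4% for mt-Rnr2 and 63.5% for mt-Rnr1, were exceeded by 8.11% and 5.41% of the 74 genes of at least 1000 CPM. Without tumor 1 the CVs were 33.1% and 45.8%, exceeded by 12.2% and 5.41% of those genes. Over the same 5 tumors mt-Nd6 had a CV of 39.3% and mt-Co1 one of 32.3%, so mt-Rnr2 was then within the range of the mRNAs. Over the mRNAs of the same tumor, the rRNA sum was 0.0365 in tumor 1 and 0.160 to 0.530 in the others, a 14.5-fold range with tumor 1 and a 3.31-fold range without it. The ratio of mt-Rnr2 to mt-Rnr1, genes copied from the same precursor, was 1.21 in tumor 1 and 2.08 to 3.06 in the others. Thus the rRNAs were low in tumor 1 beside other mitochondrial RNAs and not only beside nuclear ones.

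How rRNAs enter a library primed with oligo(dT) is not shown by counts, but the genes differ in their own runs of A, which such primers can also bind. The 30 bases around the longest run in each rRNA and in mt-Nd2 are printed with the run in capitals.

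mt-Rnr2 (bases 384 to 413 of the gene at chrM:1094-2675): ttaaacttgctAAAAAAAcaacaaaatcaa
mt-Rnr1 (bases 624 to 653 of the gene at chrM:70-1024): tcagcaaaccctAAAAAggtattaaagtaa
mt-Nd2 (bases 128 to 157 of the gene at chrM:3914-4951): tactaatcaacAAAAAAAAcccacgatcaa

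mt-Rnr2 has a longest run of 7 A and 4 runs of at least 6, mt-Rnr1 a longest run of 5, and mt-Nd2, with 8, the longest among the 15 mRNA and rRNA genes. Of 3884 annotated protein-coding transcripts between 1424 and 1740 bases, a range of lengths around that of mt-Rnr2, 19.8% hold a run of 7 A. mt-Nd4, mt-Nd5 and mt-Co1 have a longest run of 7 A as well, mt-Cytb has 5 and mt-Nd6 has 3. A run of A is a description of the sequence, and no priming site was located.

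tRNAs were counted at low levels, and 5 of the 22 were above the floor in all 6 tumors (mt-Ti, mt-Tq, mt-Tm, mt-Tt and mt-Tp). All 22 together summed to 26.1, 39.5, 17.7, 63.6, 46.9 and 34.9 CPM in tumors 1 to 6, from 73 counts in tumor 3 to 299 in tumor 4, 9 of the 22 were at 0 in every tumor and 11 never exceeded 3 counts. Mature tRNAs carry no poly(A) tail and are heavily modified, and these counts do not say whether mature tRNA, precursor or neighboring mRNA was read. The 5 with the largest mean are printed as encoded, with the last 3 bases of the gene in capitals, since the CCA that ends every mature tRNA is not encoded and is added by an enzyme.

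mt-Tm (chrM:3845-3913, plus strand): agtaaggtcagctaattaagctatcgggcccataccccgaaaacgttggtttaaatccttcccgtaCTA
mt-Tp (chrM:15356-15422, minus strand): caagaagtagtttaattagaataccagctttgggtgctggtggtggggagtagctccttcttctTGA
mt-Tq (chrM:3772-3842, minus strand): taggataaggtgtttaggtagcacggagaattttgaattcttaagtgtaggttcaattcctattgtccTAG
mt-Te (chrM:14071-14139, minus strand): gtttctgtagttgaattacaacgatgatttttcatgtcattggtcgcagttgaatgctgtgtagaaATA
mt-Tt (chrM:15289-15355, plus strand): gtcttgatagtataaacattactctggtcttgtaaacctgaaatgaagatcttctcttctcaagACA

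mt-Tm, the methionine tRNA just ahead of mt-Nd2, measured 6.96, 5.18, 3.64, 15.7, 17.4 and 8.20 CPM in tumors 1 to 6. mt-Tp, the proline tRNA at the end of the light-strand genes, measured 4.41, 13.5, 3.39, 14.5, 10.4 and 9.57 CPM. Tumor 3 was the lowest for both, and tumors 4 and 5 were high for mt-Tm. mt-Tq, the glutamine tRNA, measured 3.39, 11.2, 1.21, 11.1, 4.99 and 6.05 CPM, and mt-Te, the glutamate tRNA beside mt-Nd6, measured 1.87, 1.20, 2.67, 8.72, 5.39 and 2.15 CPM. mt-Tt, the threonine tRNA next to mt-Cytb, measured 4.24, 2.79, 1.94, 2.55, 1.80 and 2.34 CPM, the only one of the 5 to be highest in tumor 1. No tRNA gene had more than 87 counts in a tumor. The 8 light-strand tRNA genes summed to 8.73 to 36.2 CPM and the 14 heavy-strand ones to 8.97 to 27.4 CPM.

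**Figure D3:**
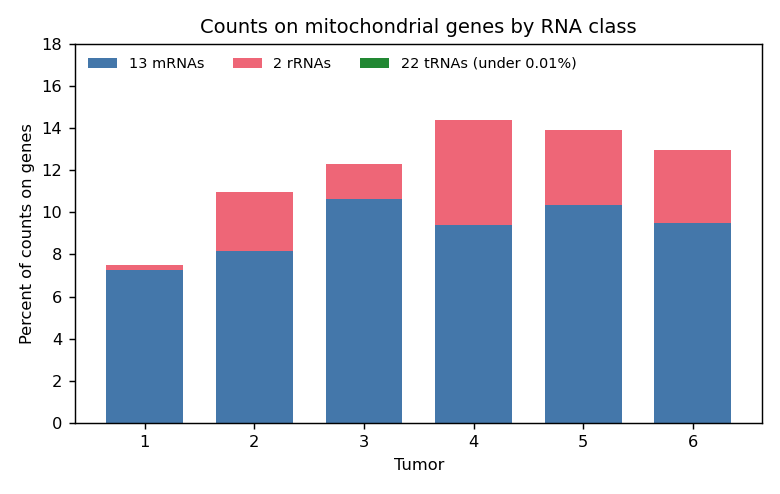
Percent of all gene counts that fell on mitochondrial mRNAs, rRNAs and tRNAs in each tumor (bars stacked, from 0). The total runs from 7.50% in tumor 1 to 14.4% in tumor 4, and the rRNA part from 0.264% to 4.98%. The tRNA part, under 0.01%, is too thin to be seen.

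Over all classes, mitochondrial genes held 7.50%, 11.0%, 12.3%, 14.4%, 13.9% and 12.98% of gene counts in tumors 1 to 6. Wilson 95% intervals were narrow, 7.48% to 7.53% in tumor 1 and 14.35% to 14.42% in tumor 4, and they cover counting error only. Tumor 1 was lowest, and the other 5 lay between 11.0% and 14.4%. The mRNAs summed to 72372, 81606, 106155, 93954, 103622 and 95163 CPM, a 1.47-fold range. The rRNAs summed to 2642, 28018, 17033, 49828, 35447 and 34598 CPM, an 18.9-fold range that was 2.93-fold without tumor 1. The total was higher in tumor 4 than in tumor 3 although the mRNA sum was lower there.

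Mouse identifiers in the labels carry 2 prefixes, with tumors 2 and 3 under one and tumors 1, 4, 5 and 6 under the other. The shares of 11.0% and 12.3% in the former fell inside the range of 7.50% to 14.4% in the latter, but only through tumor 1. Without tumor 1 the latter lay at 12.98% to 14.4%, above both. The rRNA sums were likewise 28018 and 17033 CPM in tumors 2 and 3, against 34598 to 49828 CPM in tumors 4 to 6. For the mRNA sums, 81606 and 106155 CPM lay on either side of the 93954 to 103622 CPM in tumors 4 to 6. What the prefix stands for is not stated. In bulk samples, fewer cells of a type and less RNA per cell cannot be told apart, which holds for every value given here.

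**Figure D4:**
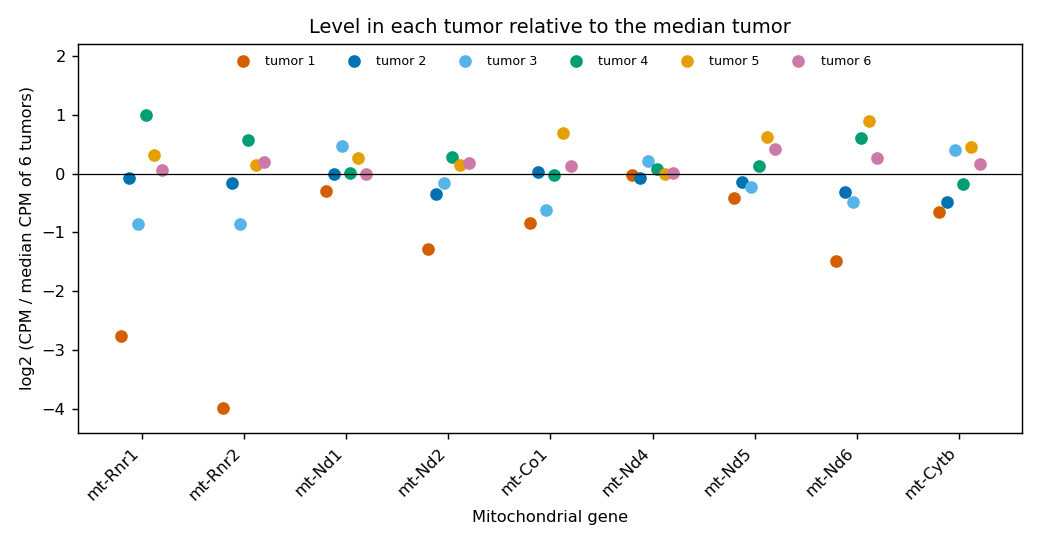
Level of each of the 9 mitochondrial genes averaging 10 CPM or more in each tumor, as log2 of its CPM over the median of the 6 tumors. Tumor 1 is lowest for 8 of the 9 genes and near 0 for mt-Nd4, and its distance is widest for mt-Rnr2 and mt-Rnr1.

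The 9 mitochondrial genes averaging 10 CPM or more were then compared by which tumor was lowest. Tumor 1 was lowest for 8 of 9, the exception being mt-Nd4, whereas it was lowest for 27.5% of the 8873 genes of at least that mean. With counts outside the mitochondrial chromosome as the denominator, tumor 1 was lowest for 9 of 9 (30.0% of all genes), and with scaling by TMM, the trimmed mean normalization of edgeR, also for 9 of 9 (29.8%). These genes share precursor RNAs and are not independent of each other. For none of the 9 was a tumor far enough from the rest to exceed the Dixon 95% critical value for 6 values (judged by the gap to the nearest tumor over the range), and 18.1% of all genes of that mean exceeded it. The log2 plot shows where tumor 1 departs: widely for the rRNAs, moderately for mt-Nd6 and mt-Nd2, and hardly for mt-Nd4.

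Complexes I, III, IV and V combine mitochondrial and nuclear subunits, and the RNAs of each side were set beside each other in every tumor. Complex I, the entry point of electrons from NADH, has 7 mitochondrial subunits, 5 of them counted. These summed to 62433, 69290, 87008, 79533, 80977 and 77402 CPM in tumors 1 to 6, and 36 nuclear subunit genes to 6818, 3064, 4373, 3705, 4375 and 4395 CPM. The mitochondrial sum was thus lowest, and the nuclear sum highest, in tumor 1. The ratio of mitochondrial to nuclear RNA was 9.16 in tumor 1 and 17.6 to 22.6 in the others.

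**Figure D5:**
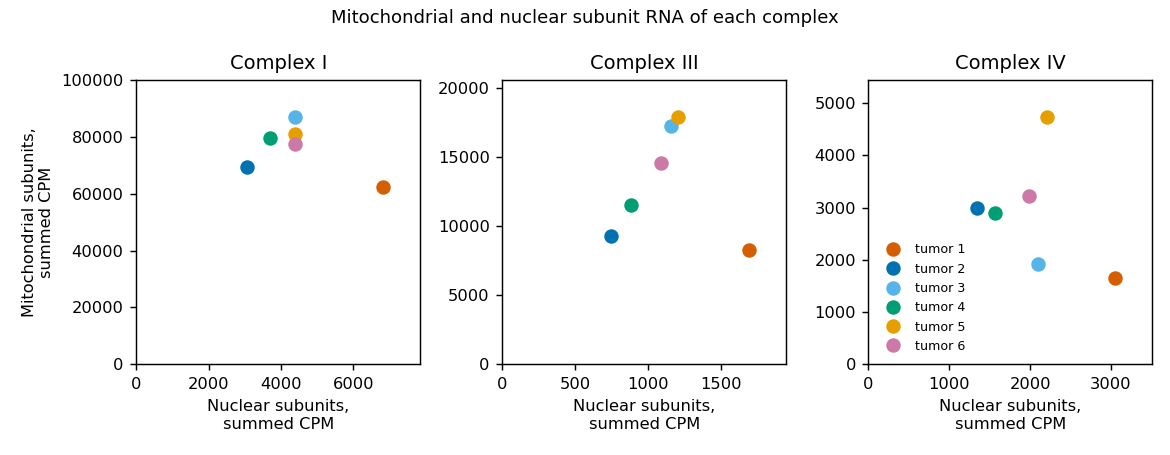
Summed level of the mitochondrial subunits (vertical, CPM) against the nuclear subunits (horizontal, CPM) of complexes I, III and IV, 1 point per tumor, axes from 0. Tumor 1 lies at the lower right in each panel, apart from the other 5 tumors, with the highest nuclear and the lowest mitochondrial sum.

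Complex III passes electrons from ubiquinol to cytochrome c, and its one mitochondrial subunit is mt-Cytb. Its ratio to the 9 nuclear subunits was 4.90 in tumor 1 and 12.5 to 14.9 in the others. For complex IV, which reduces oxygen, mt-Co1 alone was counted of 3 mitochondrial subunits, and the ratio to 11 nuclear subunits was 0.539 in tumor 1 and 0.909 to 2.23 in the others. For complex V, the ATP synthase, the mitochondrial sum was at most 0.195 CPM beside 2112 to 4826 CPM for 17 nuclear subunits, so no ratio could be read. Complex II has no mitochondrial subunit, and its 4 nuclear genes reached 701 CPM in sum in tumor 1, against 334 to 423 CPM in the others. The nuclear sums of all 5 complexes were highest in tumor 1 and lowest in tumor 2. For complexes I, III and IV, the mitochondrial and nuclear sums therefore stood at opposite ends in tumor 1. Not every nuclear gene was highest in tumor 1.

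Nuclear genes that act on mitochondrial DNA and RNA were described from 2 lists. The 17 genes of transcription and replication summed to 193 to 272 CPM, with 228 CPM in tumor 1, and 15 of them were above the floor in at least 1 tumor. Tfam, which packages mitochondrial DNA and starts its transcription, measured 34.1, 26.7, 51.7, 53.6, 66.1 and 51.9 CPM in tumors 1 to 6. Polrmt, the mitochondrial RNA polymerase, measured 67.2, 30.3, 38.6, 24.5, 22.0 and 24.0 CPM and was highest in tumor 1, where most mitochondrial RNAs were lowest. Ssbp1, which binds single-stranded mitochondrial DNA during replication, measured 2.04 CPM in tumor 1, against 19.5 to 42.9 CPM in the others. Polg, the replicative DNA polymerase, lay between 21.1 and 53.6 CPM and Mterf4, needed for ribosome assembly, between 14.0 and 26.7 CPM.

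The 28 genes of RNA processing and stability summed to 888 to 1310 CPM, highest in tumor 1, and all 28 were above the floor in at least 1 tumor. Rexo2, an exonuclease that degrades very short RNAs, measured 292 CPM in tumor 1, against 124 to 184 CPM in the others. Hsd17b10, a subunit of the enzyme that cuts tRNA 5′ ends, measured 160 CPM in tumor 1, against 60.6 to 85.1 CPM in the others. Lrpprc and Slirp, which together stabilize mitochondrial mRNAs, lay at 92.1 to 142 CPM and 36.3 to 103 CPM, and Angel2 at 49.2 to 86.7 CPM. For Lrpprc and Slirp, tumor 1 was inside the range of the other 5.

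The study sorts treated tumors by hypoxia, and since classes are not in the labels, each gene was fitted against a hypoxia score, log2 of the mean level of Vegfa, Slc2a1 and Car9 in TPM (counts per length, scaled to a common total). The score before log was 48.5, 37.2, 51.4, 76.6, 94.4 and 47.3 TPM in tumors 1 to 6, a 2.54-fold range. By edgeR's quasi-likelihood test with Benjamini-Hochberg adjustment, 0 of 12563 genes passed an adjusted p of 0.05 (0.0%), the genes of the score included, and 0 of the 15 mitochondrial genes tested did. At an unadjusted p under 0.05 there were 542 genes (4.31%) and 2 mitochondrial genes, mt-Te and mt-Tm. With the identifier prefix as a term 1 mitochondrial gene, mt-Te, remained under that level, and without tumor 4 there were 0. DESeq2 called 16 genes (0.127%), none of them mitochondrial. Slopes were above 0 for 12 of 15 mitochondrial genes, against 46.8% of all genes. The 15 share precursor RNAs and are not independent of each other, so this count does not show a rise with the score.

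mt-Te had a log2 slope of 1.93 (SE 0.61) per unit of log2 score and mt-Tm one of 1.38 (SE 0.48), each with an edgeR adjusted p of 0.951. With the prefix as a term the slope of mt-Tm was 0.92 (SE 0.57). mt-Nd4 had a slope of -0.03 with a 95% interval of -0.89 to 0.83. mt-Rnr1 had one of 0.82 (-0.78 to 2.43) and mt-Rnr2 one of 0.59 (-1.30 to 2.48). Leaving out 1 tumor gave slopes of 0.39 (without tumor 4) to 1.496 (without tumor 2) for mt-Rnr1 and of 0.30 to 1.09 for mt-Rnr2, without the same tumors. These intervals leave room for changes in either direction at this number of tumors. Without tumors 4 and 5, whose scores are the highest, slopes were above 0 for 3 of 13 mitochondrial genes, and those of mt-Rnr1 and mt-Rnr2 were -2.27 (SE 2.40) and -2.07 (SE 3.06), errors too wide to read a direction from. Without tumor 4 alone 11 of 15 slopes were above 0, and without tumor 5 alone 12 of 15. With the identifier prefix as a term, 0 genes passed.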

How the data were processed

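The authors made libraries with a 3′ method (QuantSeq FWD, with a module that adds unique molecular identifiers of 6 nt), trimmed with bbduk, mapped to GRCm38 (mm10) by STAR 2.5 and assigned reads to genes by HTSeq, all within Bluebee. Per the deposited files, values are unnormalized counts of reads for each gene, 1 file per tumor. Whether identifiers were used to collapse reads, the strand setting and the annotation release are not given in the sources used here. Lines that name no gene (16.1% to 41.4% of reads) were left out of totals. Samples come from 1 labelled group, and p-values measure only the spread between these samples.

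CPM used the total over all genes, and TPM for the hypoxia score used union exon lengths of GENCODE M21. All 37 members matched by gene identifier, and 419 identifiers of other genes (at most 0.0723% of counts) had no match in that release. Sequences were taken from the GENCODE M21 transcripts, which represent another strain than FVB/N. The planned search for shared windows of 50 bases in the whole genome was limited to annotated transcripts, because a genome sequence was not used here. Slopes were fitted with edgeR 4.0.16 (TMM, filterByExpr, quasi-likelihood F test) and DESeq2 1.42.0 in R 4.3.3. Other steps used Python 3.11.15. Only the edgeR slope fit was tried on simulated counts, with planted slopes and a fixed spread between samples. DESeq2 and the Dixon rule were not tried in that way, and no result here rests on that trial. Alternatives were other denominators and scalings, other filters, other scores and each tumor left out in turn.

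Members and lists were chosen with earlier results of these data known. Named were all members, by tumor for the mRNAs, rRNAs and the 5 tRNAs of largest mean, the genes of the score, nuclear copies sharing at least 50% of windows and the 5 genes of largest mean of each of the transcription and processing lists, with markers given as sums. For the copies, the rule named the 5 of largest mean, and the other 2 were named after their values were seen. Single immune markers were likewise named after their values were seen.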

Additional observations from a re-analysis of the deposited data

Results flagged for a closer look

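Of 72 measures checked, in 10 a tumor lay apart, its gap to the next tumor over the whole range being above the Dixon 95% critical value for 6 values (13.9%). About 3.6 would by the critical value alone, but 18.1% of all genes averaging 10 CPM or more exceeded it, so the share among these measures was not above that of genes at large. Of the mitochondrial genes themselves, mt-Tv, the valine tRNA between the rRNAs, had a gap of 0.660, from 13 counts in tumor 4. The ratio of mitochondrial to nuclear subunit RNA was low in tumor 1 for complex I (gap 0.628, 9.16 against a median of 19.9 in the others) and complex III (gap 0.754, 4.90 against 13.4). In the same tumor the nuclear subunit sums of complex I (gap 0.646) and complex II (gap 0.758) were high. Also high in tumor 1 were Rexo2 (gap 0.644, 292 CPM against a median of 132 CPM), Hsd17b10 (gap 0.754, 160 against 65.5 CPM) and Polrmt (gap 0.633, 67.2 against 24.5 CPM). The median rank correlation of the library of tumor 1 with the others was low (gap 0.739), so these 8 measures of tumor 1 come from a library that stands apart. Erythroid markers were high in tumor 3 (gap 0.926). The part of any of these in the levels of the mitochondrial genes was not tested.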

How the results depend on the processing

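For 46 results, 499 alternatives were computed. The value stayed within the spread between tumors, or kept its direction and side of the threshold, in 460 of them. It moved in 22 and changed sign in 17. Leaving out 1 tumor cannot shift a median over the tumors by more than their standard deviation, which served as the spread. Medians with a tumor left out therefore counted as unmoved by construction. No slope of a single member passed the threshold in any setting, so only its sign could differ. The 460 is therefore not a measure of robustness. With all reads as the denominator, the median mitochondrial share was 9.35% and the mRNA sum 69971 CPM, and with counts outside the mitochondrial chromosome as the denominator the mRNA sum was 109548 CPM. Of the counts on all 37 genes, mt-Nd4 took 33.1% and mt-Nd1 17.1%, and mt-Nd1 took 43.4% of mRNAs with under 10% of windows shared, which leave out mt-Nd4 and mt-Co1. With the median nuclear subunit in place of the sum, ratios were 811 (complex I), 131 (III) and 18.1 (IV). Without a minimum level, 5 members had a tumor apart (mt-Tf, mt-Tv, mt-Co2, mt-Atp6 and mt-Nd3, none above 13 counts). Genes passing the slope test numbered 16 with DESeq2, 10 without a filter on low counts, and 0 to 2 with a tumor left out, 2 of them without tumor 1, and 0 members passed under any of these.

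Leaving out a tumor moved slopes across 0 for mt-Nd1 (-0.026 to 0.18), mt-Co1 (-0.11 to 0.86), mt-Nd4 (-0.067 to 0.061), mt-Tp (-0.10 to 1.03) and mt-Tq (-0.67 to 0.98). Scaling by library size without TMM gave mt-Nd4 a slope of 0.036. Without the 2 tumors farthest from the median score, slopes were -2.27 (mt-Rnr1), -2.07 (mt-Rnr2), -0.15 (mt-Nd2), -1.53 (mt-Co1), 0.22 (mt-Nd4), -0.22 (mt-Nd5), -0.73 (mt-Nd6), -0.20 (mt-Tm) and -3.91 (mt-Tp), over 4 tumors with a narrow range of scores (SE 2.40 for mt-Rnr1), so that these signs show no direction. No paired analysis was possible because the labels give 1 group. Counts on 17 members never exceeded 3 in a tumor, and differences between tumors could not be read for them at this depth.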
